A study of Homo sapiens with 6 samples.

Results

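Microtubules are hollow polymers of alpha- and beta-tubulin that grow and shrink from their ends, and the pool of free tubulin, the stability of the wall and the behaviour of the tips are set by accessory proteins. Microtubule-associated proteins (MAPs) bind along the wall and stabilise it, stathmins hold free tubulin dimers and promote shrinkage, end-binding proteins and CLASPs act at the growing tip, and katanin cuts the wall. Genes of this kind were followed here in an anaplastic thyroid carcinoma line exposed to erianin, a natural bibenzyl from Dendrobium orchids that is known to inhibit tubulin polymerization. They were chosen by name and role: the lattice-binding MAP1A, MAP1B, MAP2, MAP4 and MAP7, the stathmins STMN1 and STMN3, the end-binding protein gene MAPRE1, the rescue factor gene CLASP1 and the katanin catalytic subunit gene KATNA1. They make up 10 of the 39168 gene identifiers in the table.

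RNA-seq was performed on CAL62 cells, an established human line that the labels give as wild type, after 48 h with 50 nM erianin (3 libraries) or with DMSO, the solvent, at an equal concentration (3 libraries). The libraries were described as replicate experiments, with no statement that they came from separate cultures, so the spread between them may be partly technical. CAL62 is 1 line grown in a dish, and 1 dose and 1 time were measured. In bulk RNA, fewer cells of a kind and less RNA per cell cannot be told apart.

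The libraries held 25776301, 34107727 and 30837542 reads on named genes for DMSO and 33236000 to 33873551 for erianin. DMSO replicate 3 stood apart: its distance to the other DMSO libraries was 62.9 and 64.1 (square root of the summed squared log2 differences over the genes tested), against 37.2 between those, 28.2 to 29 among the erianin libraries and 58.5 to 62.3 between DMSO replicates 1 and 2 and erianin. Across 12646 genes its deviation from DMSO replicates 1 and 2 correlated with the GC content of the transcripts (Pearson r = -0.508, a description within 1 library). For the 10 genes the log2 fold change is given below with and without this library. For other single genes only the fit of all libraries is given. The keratin genes KRT8 (1410 ± 199 CPM in DMSO; SD, n = 3) and KRT18 (890 ± 119 CPM), the mesenchymal genes VIM (1290 ± 194 CPM) and FN1 (5820 ± 864 CPM) and the thyroid transcription factor gene PAX8 (675 ± 55.2 CPM) were high. Of the epithelial adhesion genes, EPCAM was at 18.7 ± 1.61 CPM and CDH1 had at most 9 reads in any library. Of the other thyroid markers, HHEX was at 35.5 ± 2.52, FOXE1 at 1.57 ± 0.633 and DUOX2 at 1.3 ± 0.213 CPM in DMSO. Of 12 thyroid genes 8 were too low to test. Among these, TG and SLC5A5 had at most 13 reads in any library and TSHR and NKX2-1 had 0. Of 13 leukocyte, endothelial and fibroblast genes 9 were too low to test, PTPRC with at most 6 reads among them.

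Levels are given as CPM, the reads of a gene scaled to the size of its library with TMM factors. A gene passed the test at an edgeR quasi-likelihood adjusted p under 0.05, and was called when its absolute log2 fold change also exceeded 0.5. All 10 genes were abundant enough to be tested. Of them, 1 was called, STMN3, which was lower with erianin. Over all 12821 genes tested 8.73% were called, 5.37% higher and 3.36% lower. On the adjusted p alone 3 of the 10 passed, beside 14.9% of all genes. STMN3 was the 1 that passed lower, beside 7.69% of all genes, and MAPRE1 and KATNA1 the 2 that passed higher, beside 7.22%. The median log2 fold change of the 10 was -0.05, beside 0.00 over all genes, and 4 were higher and 6 lower. The CPM of the groups did not overlap for 5 of the 10 (MAP4, STMN3, MAPRE1, CLASP1 and KATNA1), beside 38.7% of all genes.

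**Figure D1:**
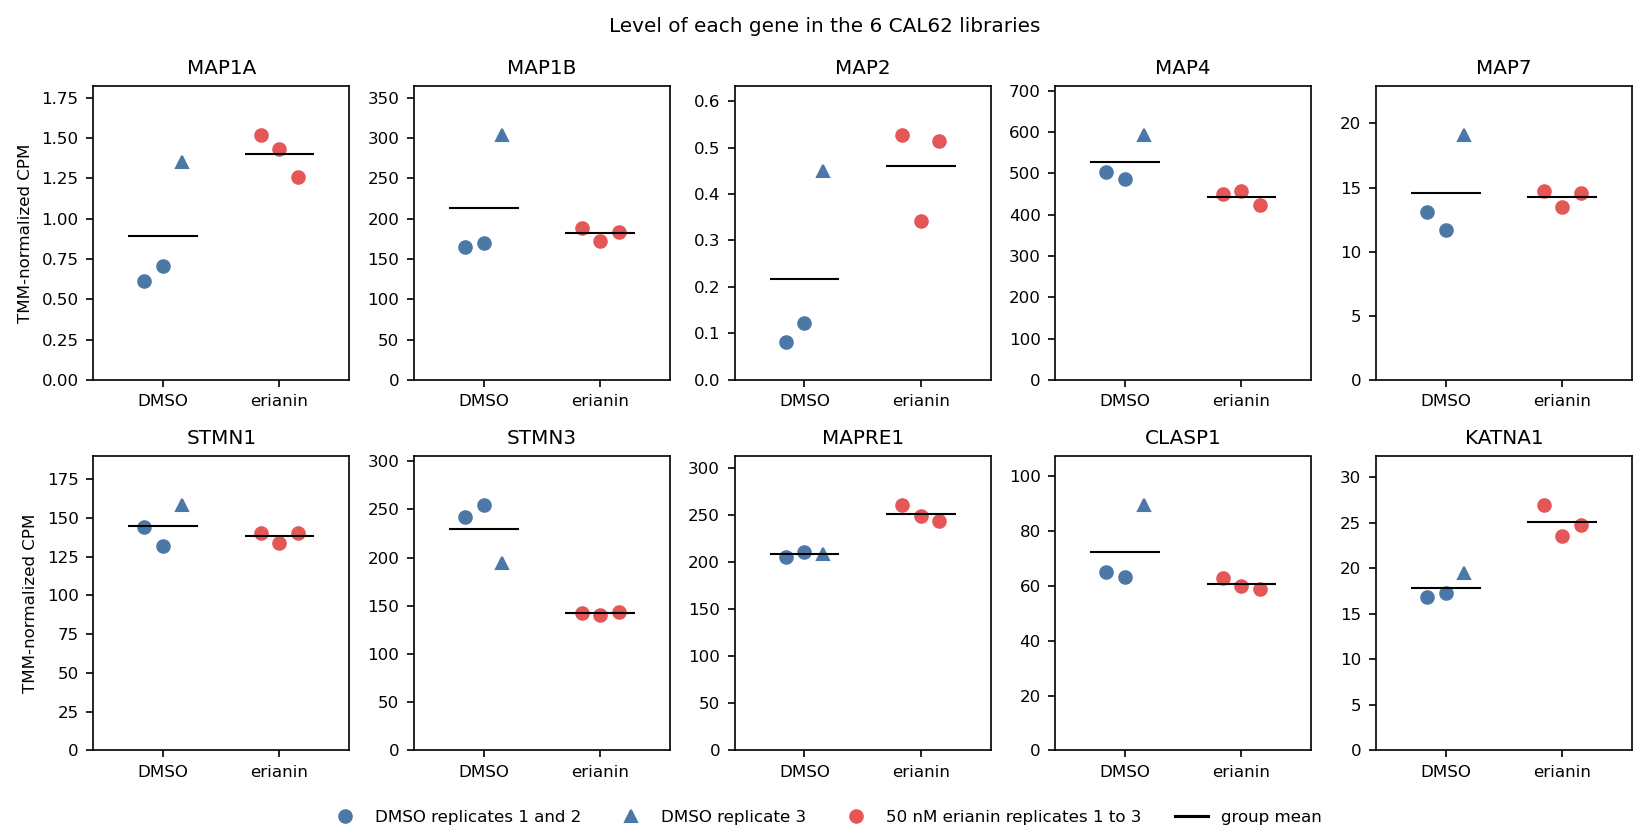
TMM-normalized CPM (vertical axes, each from 0 and on its own scale) of the 10 genes in the 3 DMSO and 3 erianin libraries, with group means as lines. STMN3 lies at 140 to 144 CPM in erianin, below all DMSO libraries, and the triangle, DMSO replicate 3, lies above the other 5 libraries for MAP1B, MAP4, MAP7, STMN1 and CLASP1.

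The stathmins are small proteins that bind tubulin dimers. STMN1, also known as oncoprotein 18, is the widely expressed form and is shut off by phosphorylation in mitosis, and STMN3 is a Golgi-associated form best known from neurons. STMN3 (ENSG00000197457, GRCh38 chr20:63639705-63657682, minus strand) was at 242, 254 and 194 CPM in DMSO replicates 1, 2 and 3. With erianin it was at 143, 140 and 144 CPM. All erianin libraries were below all DMSO libraries, and the lowest DMSO library was replicate 3. STMN3 fell by 37.9%, a log2 fold change of -0.69 (SE 0.10, 95% CI -0.93 to -0.44, adjusted p = 0.00786). Without DMSO replicate 3 the log2 fold change was -0.80 (SE 0.04, adjusted p = 8.71e-17). Its call was lost when any 1 of the erianin libraries was left out, at a log2 fold change of -0.70 without replicate 1, -0.68 without replicate 2 and -0.70 without replicate 3 (adjusted p = 0.0543, 0.0578 and 0.0557). It was also lost in the limma fit on log2(TPM + 1), where the log2 fold change was -0.48 (adjusted p = 0.0649) and the median of all genes stood at 0.18.

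STMN1 (ENSG00000117632, chr1:25884181-25906991, minus strand) showed no comparable difference. It was at 144, 132 and 158 CPM in DMSO and at 140, 134 and 140 CPM with erianin, so the erianin libraries lay inside the DMSO range. STMN1 had a log2 fold change of -0.07 (SE 0.08, 95% CI -0.26 to 0.12, adjusted p = 0.616), which leaves room for a fall of up to 0.26 or a rise of up to 0.12 on the log2 scale. Without DMSO replicate 3 the log2 fold change was -0.01 (SE 0.05, adjusted p = 0.933). With each library's trend on GC content also removed it was -0.19 (adjusted p = 0.00134), beside a median of -0.08 over all genes. The remaining stathmin genes were near or at 0, with 0 reads for STMN2 in every library and 0 to 5 for STMN4, so neither could be tested.

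STMN3 and STMN1 were also set against each other within each library, a measure that does not depend on library scaling. It can still carry a GC trend, as transcript GC was 63.1% for STMN3 and 45.7% for STMN1. With each library's trend on GC content removed, the edgeR log2 fold change was -0.69 for STMN3 (adjusted p = 0.000479). For STMN1 it was then -0.18 (adjusted p = 0.0852), beside a median of -0.07 over all genes. The log2 ratio of STMN3 to STMN1 reads was 0.74, 0.94 and 0.30 in DMSO and 0.03, 0.07 and 0.04 with erianin. Every erianin ratio was below every DMSO ratio, and the difference of the means was -0.61. The CPM of STMN3 alone already separated the groups while those of STMN1 overlapped, so the ratio is not separate support for the fall of STMN3. With 3 libraries against 3, an exact two-sided permutation test cannot go below 0.1, and it gave 0.1 (Benjamini-Hochberg 0.15 over 3 pairs of genes).

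End-binding protein 1, the product of MAPRE1, tracks growing plus ends and recruits other tip proteins. MAPRE1 (ENSG00000101367, chr20:32819893-32850405, plus strand) was at 205, 211 and 208 CPM in DMSO and at 260, 249 and 244 CPM with erianin. Its DMSO libraries were the closest of the 10 genes relative to their mean, DMSO replicate 3 included, and every erianin library was above them. MAPRE1 rose by 20.7%, a log2 fold change of 0.27 (SE 0.06, 95% CI 0.12 to 0.42, adjusted p = 0.0294), below the fold threshold. The value was also 0.27 without DMSO replicate 3 (SE 0.04, adjusted p = 2.71e-06). It shrank to 0.13 (adjusted p = 0.317) when the trend of each library on GC content was removed. When this was done without DMSO replicate 3 it was 0.04 (adjusted p = 0.479). It was 0.15 (adjusted p = 0.203) when the trend on exon length was removed. The median of all genes in these fits was -0.07, -0.08 and -0.07, so part of the shrinkage is shared by all genes. The adjusted p of MAPRE1 was 0.0853 to 0.159 when any 1 library other than DMSO replicate 3 was left out.

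The paralogs of MAPRE1 did not pass the test. MAPRE3 was at 32.1 ± 1.49 CPM in DMSO and 36.4 ± 1.5 CPM with erianin (SD, n = 3; log2 fold change 0.18, SE 0.09, adjusted p = 0.20), and MAPRE2 was at 21.2 ± 4.24 and 25.4 ± 1.29 CPM (0.26, SE 0.15, adjusted p = 0.285). These paralogs were picked after their values were seen. The log2 ratio of MAPRE1 to MAPRE3 reads was 2.60, 2.76 and 2.73 in DMSO and 2.77, 2.83 and 2.76 with erianin, a difference of 0.09 (exact permutation p = 0.2, Benjamini-Hochberg 0.2). The ranges of the groups met at 2.76.

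CLASP1 encodes a plus-end protein that rescues shrinking microtubules and anchors them at the cortex and at kinetochores. CLASP1 (ENSG00000074054, chr2:121337776-121649587, minus strand) was at 65.1, 63.3 and 89.4 CPM in DMSO and at 63.0, 60.0 and 58.8 CPM with erianin. DMSO replicate 3 was far above the other 5 libraries, and the lowest DMSO library was only just above the highest erianin library. CLASP1 had a log2 fold change of -0.26 (SE 0.14, 95% CI -0.58 to 0.06, adjusted p = 0.248) and, without DMSO replicate 3, -0.09 (SE 0.06, adjusted p = 0.185). With the GC trend removed it was -0.37 (adjusted p = 0.0252), beside a median of -0.07 over all genes. When this was done without DMSO replicate 3 it was -0.28 (adjusted p = 8.17e-05), beside a median of -0.08 over all genes.

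Its paralog CLASP2, picked after its values were seen, was at 16.9, 16.9 and 24.8 CPM in DMSO and at 22.8, 20.5 and 21.7 CPM with erianin (log2 fold change 0.15, SE 0.17, adjusted p = 0.59). Neither gene passed the test alone, and DMSO replicate 3 was high for both. Within libraries, the log2 ratio of CLASP1 to CLASP2 reads was 1.95, 1.91 and 1.85 in DMSO and 1.47, 1.55 and 1.44 with erianin. All DMSO ratios, that of replicate 3 included, were above all erianin ratios. The difference was -0.42 and the exact permutation p was 0.1, the smallest that 3 against 3 can give (Benjamini-Hochberg 0.15). The ratio was not corrected for GC, and no share of separated ratios over other gene pairs was computed. For single genes, the CPM of the groups did not overlap for 38.7% of all genes.

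**Figure D2:**
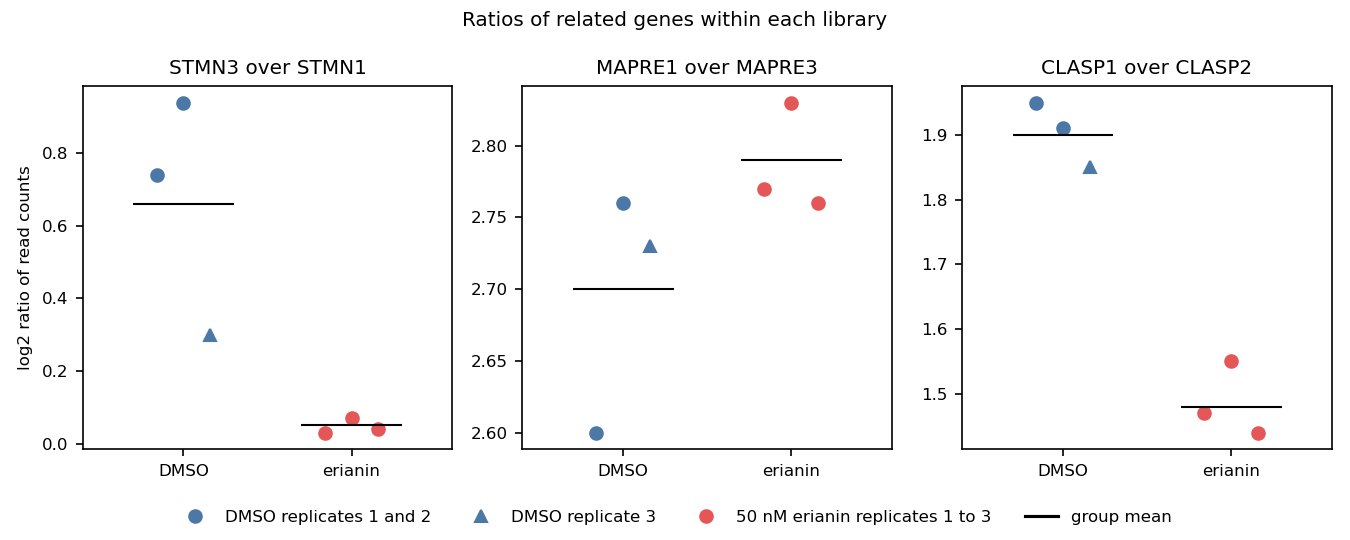
Log2 ratio of the read counts of related genes (vertical axes, each on its own scale and not from 0) in each library, with group means as lines. The ratios of STMN3 to STMN1 and of CLASP1 to CLASP2 do not overlap between groups, whereas those of MAPRE1 to MAPRE3 meet at 2.76.

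Katanin is an enzyme that severs microtubules with the energy of ATP. KATNA1 encodes its catalytic p60 subunit. KATNA1 (ENSG00000186625, chr6:149594873-149648972, minus strand) was at 16.8, 17.3 and 19.5 CPM in DMSO and at 26.9, 23.6 and 24.8 CPM with erianin. The groups were separated by a gap larger than the spread within either. KATNA1 rose by 40.6%, a log2 fold change of 0.49 (SE 0.11, 95% CI 0.24 to 0.74, adjusted p = 0.0225), just short of the fold threshold. Without DMSO replicate 3 it was 0.55 (SE 0.08, adjusted p = 1.1e-06) and was called. The adjusted p was 0.0777 to 0.117 when any other library was left out. It was 0.104 when the length trend was removed (log2 fold change 0.35, beside a median of -0.07 over all genes).

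Among the lattice-binding proteins, MAP4 is the main MAP of cells outside the nervous system. MAP4 (ENSG00000047849, chr3:47850690-48089272, minus strand) was at 504, 487 and 593 CPM in DMSO and at 450, 457 and 423 CPM with erianin. All erianin libraries were below all DMSO libraries, the highest of which was replicate 3. For MAP4 the log2 fold change was -0.25 (SE 0.09, 95% CI -0.47 to -0.04, adjusted p = 0.11). Without DMSO replicate 3 the difference was smaller but passed the test, at -0.16 (SE 0.04, adjusted p = 0.00107). With the length or the GC trend removed it was -0.27 or -0.31 (adjusted p = 0.0269 and 0.0394), beside a median of -0.07 over all genes in each. With the GC trend removed and without DMSO replicate 3 it was -0.23 (adjusted p = 2.35e-05), beside a median of -0.08 over all genes.

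MAP1B, a large MAP of growing axons, is also expressed in this line. MAP1B (ENSG00000131711, chr5:72107234-72209570, plus strand) was at 165, 170 and 304 CPM in DMSO and at 189, 173 and 184 CPM with erianin. The erianin libraries lay between the DMSO libraries, with replicate 3 above all. The log2 fold change was -0.22 (SE 0.22, 95% CI -0.75 to 0.30, adjusted p = 0.553) and turned to 0.12 (SE 0.04, adjusted p = 0.0219) without DMSO replicate 3, a rise of 8.71%. Its direction thus rested on 1 library.

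MAP7, also called ensconsin, binds the wall and recruits kinesin-1 to it. MAP7 (ENSG00000135525, chr6:136342281-136550819, minus strand) was at 13.1, 11.7 and 19.1 CPM in DMSO and at 14.7, 13.5 and 14.6 CPM with erianin. Again DMSO replicate 3 was the highest and the groups overlapped. The log2 fold change was -0.04 (SE 0.18, 95% CI -0.47 to 0.39, adjusted p = 0.92) and 0.20 (SE 0.10, adjusted p = 0.0792) without DMSO replicate 3.

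MAP1A and MAP2, the structural MAPs of mature dendrites and axons, were close to the detection limit. MAP1A (ENSG00000166963, chr15:43510958-43531620, plus strand) had 15, 23 and 42 reads in DMSO and 52, 50 and 44 with erianin, or 0.616, 0.708 and 1.35 CPM against 1.52, 1.43 and 1.26 CPM. DMSO replicate 3 lay among the erianin libraries. The log2 fold change was 0.64 (SE 0.32, 95% CI -0.11 to 1.38, adjusted p = 0.224) and 1.06 (SE 0.34, adjusted p = 0.00817) without that library.

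MAP2 (ENSG00000078018, chr2:209424058-209734118, plus strand) had 2, 4 and 14 reads in DMSO and 18, 12 and 18 with erianin, or 0.0821, 0.123 and 0.449 CPM against 0.527, 0.343 and 0.514 CPM. As for MAP1A, the third DMSO library fell among the treated ones. MAP2 had a log2 fold change of 1.02 (SE 0.57, 95% CI -0.32 to 2.36, adjusted p = 0.275) and 2.09 (SE 0.67, adjusted p = 0.00929) without DMSO replicate 3. These folds rest on few reads, and MAP2 made up at most 0.0416% of the summed CPM of the 10 genes in any library.

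**Figure D3:**
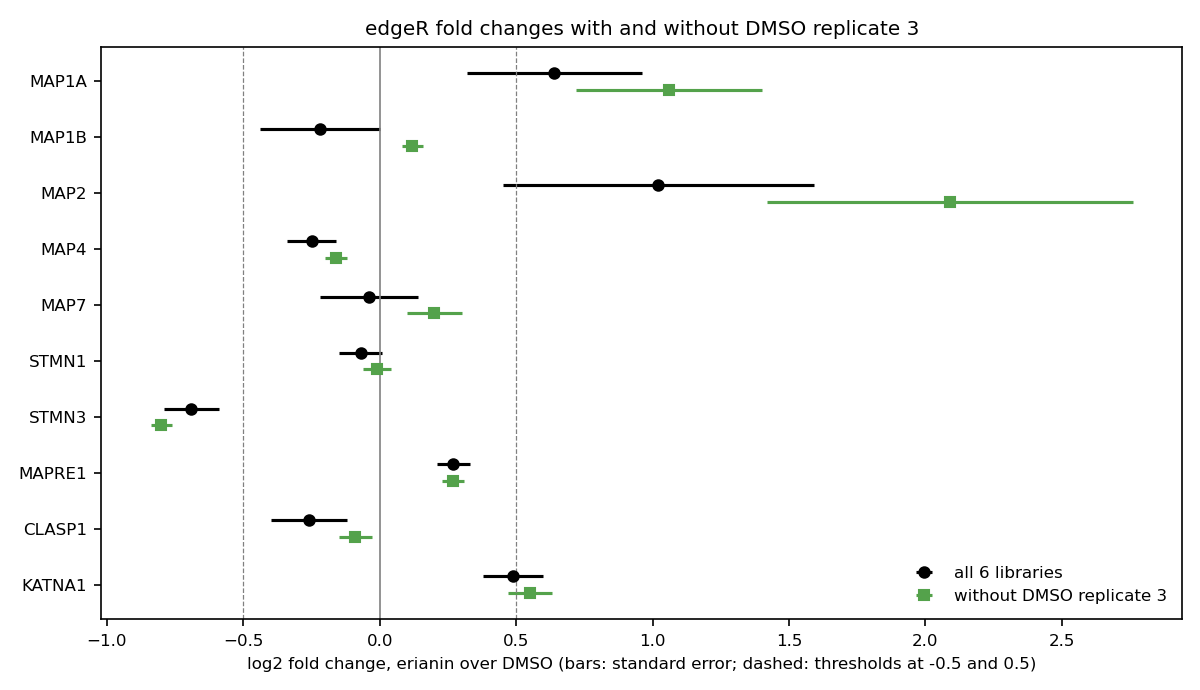
Log2 fold change, erianin over DMSO, of the 10 genes (horizontal axis; bars are standard errors) in edgeR fits of all 6 libraries (circles) and without DMSO replicate 3 (squares). STMN3 (-0.69 and -0.80), MAPRE1 (0.27 in both) and KATNA1 (0.49 and 0.55) keep their direction, MAP1B and MAP7 change sign, and MAP1A and MAP2 move furthest.

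Leaving out DMSO replicate 3 changed the calls of the 10 genes more than any other library did. Without it 7 of the 10 passed the adjusted p, beside 55.2% of 13053 genes, and 4 were called, beside 17.5%. The called genes were then STMN3, the 1 lower (6.11% of all genes), and MAP1A, MAP2 and KATNA1, the 3 higher (11.4%). Of all genes 27.5% then passed the adjusted p higher and 27.7% lower. The spread between replicates, as edgeR's common biological coefficient of variation, fell from 0.139 to 0.0421 once it was removed. In that library 5 of the 10 genes were above all other 5 libraries, beside 29.7% of all genes, and 0 were below. It lay outside the other 5 libraries for 58.7% of all genes.

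Between genes, levels were compared per length, as CPM per kilobase of all annotated exons of a gene. In DMSO the order was MAPRE1 at 79.3 ± 1.09, STMN3 at 75.8 ± 10.4, MAP4 at 35.3 ± 3.83, STMN1 at 23.2 ± 2.09 and MAP1B at 16.8 ± 6.25 CPM per kilobase (SD, n = 3). KATNA1 followed at 7.73 ± 0.612, CLASP1 at 6.57 ± 1.32, MAP7 at 2.68 ± 0.718, MAP1A at 0.0838 ± 0.0375 and MAP2 at 0.0189 ± 0.0174. The ranges of the DMSO libraries overlapped for MAPRE1 and STMN3, for STMN1 and MAP1B, and for KATNA1 and CLASP1, and those neighbours are not ordered by these data. With erianin MAPRE1 was at 95.7 ± 3.06 and STMN3 at 47.1 ± 0.714 CPM per kilobase, so levels near equal in DMSO by this length moved apart. In DMSO the ratio of MAPRE1 to STMN3 was 1.05 by this length. It was 2.3 in the deposited TPM and 0.811 per kilobase of the longest coding transcript.

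The deposited TPM put the 10 genes in the same order, but the size of the gaps depended on the length used. The TPM were made with a length equal to the summed length of all annotated transcripts of a gene. This held within 1% for 95.3% of 10797 genes with more than 1 transcript in GENCODE release 29, and lowers the TPM of genes with many transcripts. MAPRE1 has 1 annotated transcript and CLASP1 has 16. MAPRE1 exceeded CLASP1 by 61.9 times in TPM, by 12.1 times per kilobase of exons and by 8.84 times per kilobase of the longest coding transcript. Its ratio to STMN1 was 6.59 in TPM and 0.936 per kilobase of the longest coding transcript, the 1 length by which the order of means changed, with STMN3 (97.8 ± 13.4 CPM per kilobase) and STMN1 (84.7 ± 7.65) before MAPRE1 (79.3 ± 1.09).

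**Figure D4:**
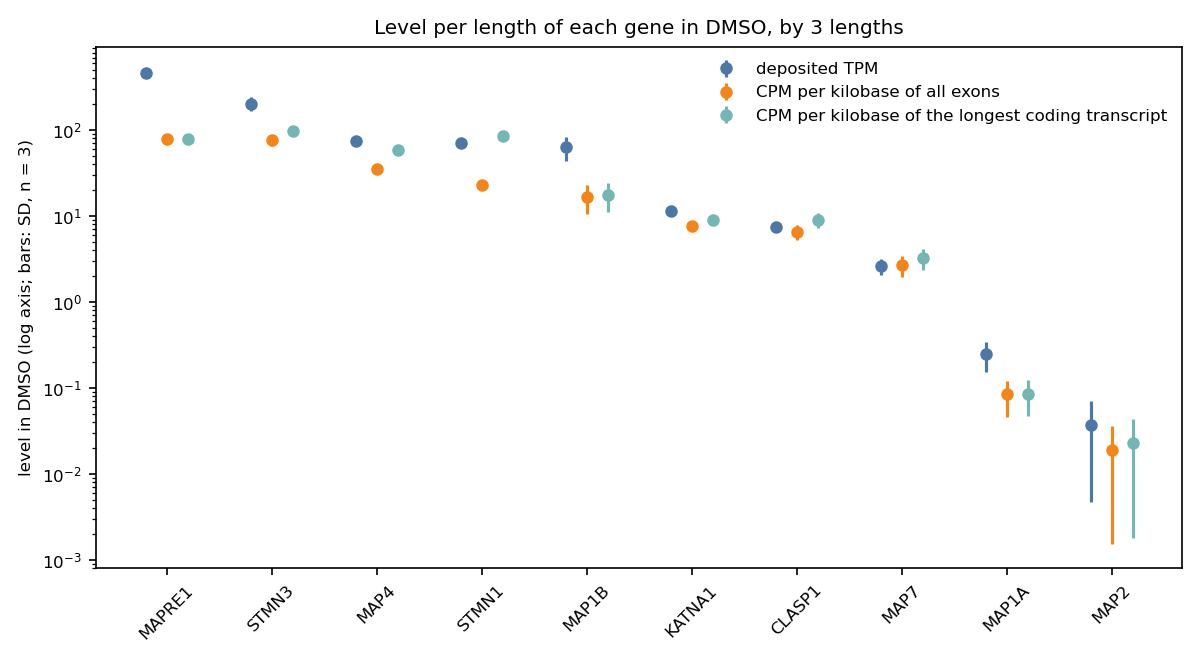
Level of each gene in DMSO (vertical log axis; points are means and bars SDs of 3 libraries) as deposited TPM, as CPM per kilobase of all exons and as CPM per kilobase of the longest coding transcript, in order of CPM per kilobase of all exons. MAPRE1 leads STMN1 by 6.59 times in TPM and is level with it on the longest coding transcript, at 0.936.

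The 10 genes together gave 1360, 1350 and 1590 CPM in DMSO and 1290, 1250 and 1240 CPM with erianin. Shares of this sum are not corrected for length. MAP4 contributed the largest share in every library, 36.2% to 37.4% in DMSO and 34.2% to 36.5% with erianin. The share of STMN3 was 17.8%, 18.8% and 12.2% in DMSO and 11.1%, 11.2% and 11.7% with erianin. MAPRE1 contributed 15.1%, 15.7% and 13.1% in DMSO and 20.2%, 19.9% and 19.8% with erianin. The share of STMN3 in DMSO replicate 3 was close to those with erianin, and the share of MAPRE1 in that library was the lowest of all 6. KATNA1 gave 1.23% to 1.29% in DMSO and 1.88% to 2.09% with erianin.

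Beyond the 10 genes, 103 further regulators of microtubules were listed by role, of which 91 were tested. The lists were made with earlier results of these data known. Of these genes 3 were called higher and 6 lower, 9.89% beside 8.73% of all genes, with a median log2 fold change of 0.01. Without DMSO replicate 3, 10 were called higher and 8 lower, 19.8% beside 17.5% of all genes. Among the lattice-binding proteins, MAPT, which encodes tau, fell from 24.2 ± 1.32 to 15.2 ± 1.31 CPM (log2 fold change -0.67, adjusted p = 0.0088). MTCL1, a microtubule crosslinker, fell by 0.55 on the log2 scale (adjusted p = 0.0104). TPPP, a tubulin-bundling protein gene, rose from 3.29 ± 0.0657 to 5.21 ± 0.604 CPM (0.66, adjusted p = 0.0244), and EML6 rose by 0.64 (adjusted p = 0.0417). DCLK1, a doublecortin-like kinase gene, rose by 1.79 (adjusted p = 0.0307) from only 0.222 CPM. The 2 other lattice MAPs with the highest deposited TPM, whose length affects this order, MAP7D1 (0.18, adjusted p = 0.0958) and MAP1S (0.13, adjusted p = 0.236), did not pass the test. Among these other regulators the edgeR fit called 0 higher without DMSO replicate 1, without any 1 of the erianin libraries or with the replicate number as a term, and 1 without DMSO replicate 2. It called 7 lower without DMSO replicate 1, 5 without DMSO replicate 2, 6 with the replicate term and 2 or 3 without 1 of the erianin libraries.

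Of the 20 plus-end genes tested, CLASP1 and MAPRE1 among them, 1 was called (5.0%, beside 8.73% of all genes). CLIP2, which encodes the linker protein CLIP-115, was at 580, 575 and 522 CPM in DMSO and at 389, 382 and 378 CPM with erianin. It fell by 0.54 on the log2 scale (SE 0.07, adjusted p = 0.00489). CKAP5, a microtubule polymerase gene, did not pass the test (-0.04, SE 0.21, adjusted p = 0.933), and DMSO replicate 3 was high for it at 498 CPM, against 282 to 366 CPM elsewhere.

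Over all 12821 genes tested 1119 were called in edgeR and 1383 in DESeq2. Of all genes 1912 passed the edgeR adjusted p and 3967 had an unadjusted edgeR p under 0.05. Of the 8 severing genes tested, 0 were called in edgeR or DESeq2. KATNA1 alone of these passed the adjusted p and was the 1 severing gene with an unadjusted p under 0.05. KATNAL1, a second catalytic subunit gene, was at 15.9 ± 2.81 CPM in DMSO and 16.0 ± 0.870 CPM with erianin (log2 fold change 0.01, SE 0.15, adjusted p = 0.97). The minus-end genes CAMSAP1 (-0.28, adjusted p = 0.0664) and CAMSAP2 (0.23, adjusted p = 0.572) did not pass. Among 16 kinases that act on MAPs or stathmins 0 were called in edgeR or DESeq2, and 7 had an unadjusted edgeR p under 0.05. MAST2 passed the adjusted p alone (-0.30, adjusted p = 0.0219), while the tau kinase genes GSK3A (-0.20, adjusted p = 0.128) and GSK3B (0.12, adjusted p = 0.469) did not.

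The enzymes that modify tubulin held 2 of the called genes, both lower, among 20 tested (10.0%, beside 8.73% of all genes). VASH1, a tubulin tyrosine carboxypeptidase gene, was at 29.6, 29.5 and 23.2 CPM in DMSO and at 12.6, 15.3 and 13.6 CPM with erianin, a fall of 0.99 on the log2 scale (SE 0.14, adjusted p = 0.00565). TTLL1, a polyglutamylase subunit gene, fell by 0.74 (SE 0.16, adjusted p = 0.024). TTLL12 (-0.40, adjusted p = 0.011) and the tubulin deacetylase gene HDAC6 (-0.45, adjusted p = 0.0429) passed the adjusted p but not the fold threshold, and TTL, the tubulin tyrosine ligase gene, was at 0.02 (adjusted p = 0.905). Of the 6 folding cofactors tested, 1 was called (16.7%, beside 8.73% of all genes). TBCD, which releases and assembles the tubulin dimer, fell from 95.6 ± 12.4 to 57.2 ± 1.85 CPM (-0.74, SE 0.11, adjusted p = 0.00664). TBCB (0.02) and TBCC (-0.02) did not pass.

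The tubulin genes themselves, 15 tested, were called lower for TUBB (1310 ± 66.1 to 871 ± 20.3 CPM; log2 fold change -0.59, adjusted p = 0.00404) and higher for TUBB2A (0.56, adjusted p = 0.0168) and the low TUBB3 (0.75, adjusted p = 0.0115). TUBA1B, TUBA1C, TUBB4B and TUBB6 passed the adjusted p alone, lower by 0.38 to 0.47 on the log2 scale. Tubulin isotypes and their pseudogenes share sequence, so reads may be split between them.

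**Figure D5:**
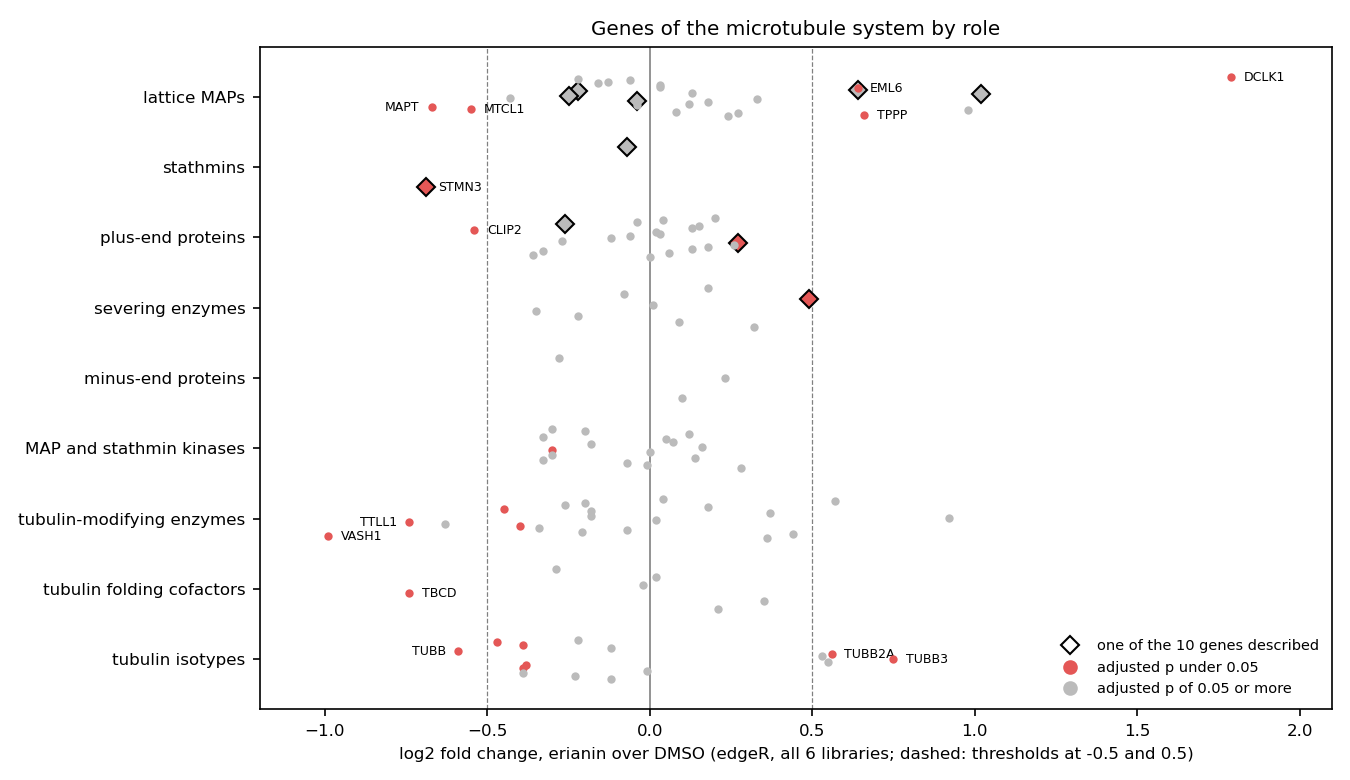
Log2 fold change, erianin over DMSO, from the edgeR fit of all 6 libraries (horizontal axis) for each tested gene of the microtubule system, by role (rows; position within a row has no meaning). Diamonds are the 10 genes described, red marks an adjusted p under 0.05, and called genes are named, STMN3 being the 1 called among the diamonds.

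The lists of other processes moved as follows. Over all 12821 genes tested 8.73% were called, 14.9% passed the adjusted p and 3967 had an unadjusted edgeR p under 0.05. Of 20 proliferation genes 0 were called in edgeR or DESeq2, 4 had an unadjusted edgeR p under 0.05 and 1 passed the adjusted p (MCM5, -0.37, adjusted p = 0.0183). Their summed level was 2050, 2070 and 2490 CPM in DMSO and 2190 to 2250 CPM with erianin, highest in DMSO replicate 3. Of 18 neuronal genes 12 were tested. GAD1 (0.92, from 4.26 to 8.04 CPM) and the low SYP (2.18, from 0.746 to 3.32 CPM) were called higher. RBFOX3 (-0.61, from 59.4 to 38.8 CPM) was called lower. The summed level of the neuronal genes was 1140 to 1250 CPM in DMSO and 1190 to 1220 CPM with erianin, mostly from UCHL1 (log2 fold change -0.04, adjusted p = 0.815). Besides UCHL1 (687 CPM in DMSO), ENO2 (170 CPM), NEFH (153 CPM), INA (69.7 CPM), RBFOX3 (59.4 CPM) and STX1A (38.6 CPM) were well measured in DMSO, while 6 of the 18 were too low to test. The summed level of the epithelial and mesenchymal genes was 9720 to 11000 CPM in DMSO and 6990 to 7370 CPM with erianin. FN1, the largest contributor, was called lower (5820 ± 864 to 3350 ± 254 CPM, log2 fold change -0.80, adjusted p = 0.00761). Of the 11 tested, 3 passed the adjusted p, all lower: FN1, VIM (-0.47, adjusted p = 0.03) and KRT7 (-0.37, adjusted p = 0.0497). KRT18 and KRT19 (-0.21 each) and KRT8 (0.01) did not pass. The thyroid genes summed to 679 to 781 CPM in DMSO and 464 to 477 CPM with erianin, almost wholly from PAX8, which was called lower (-0.66, adjusted p = 0.00404). HHEX (0.20), FOXE1 (0.03) and DUOX2 (-0.01) did not pass the test. The leukocyte, endothelial and fibroblast genes summed to 45.2 to 50.3 CPM in DMSO and 54.5 to 59.6 CPM with erianin. COL1A2, a collagen gene, was called higher (9.8 ± 2.29 to 24.9 ± 2.0 CPM; 1.35, adjusted p = 0.00532), and COL1A1 was at 34.7 ± 2.39 and 27.8 ± 1.44 CPM (-0.32, adjusted p = 0.0613). The part of these lists in the values of the 10 genes was not tested.

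Some of the 10 genes share exon sequence with another annotated gene. MAP7, CLASP1 and KATNA1 overlap genes on the opposite strand (by 159, 324 and 206 exon bases), and STMN1 overlaps the miRNA gene MIR3917 by 66 bases on the same strand. None of these neighbours was among the genes tested. The strand setting of the counting is not given in the sources used here, so their reads cannot be told apart where they overlap.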

How the data were processed

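The authors deposited a table of raw read counts per gene and a table of TPM values for 6 libraries. The submitters' processing notes name fastp 0.23.2, STAR 2.7.10, featureCounts 2.0.1 and StringTie 2.2.1 and the build GRCh38, and the annotation and strand setting are not given in the sources used here. The deposited TPM follow from the counts with 1 length per gene, and their columns sum to 59.1% (DMSO replicate 3) to 78.3% of the nominal TPM total. Of 65807 rows, 26480 without identifier (0.00385% to 0.00515% of counts) were left out. Of 39168 identifiers, 38259 matched a symbol and 159 stood on more than 1 row, of which the row with most counts was taken. Coordinates and lengths came from GENCODE release 29 by identifier. The submitters' columns left unused numbered 0.

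Counts were fitted in edgeR 4.0.16 (R 4.3.3; TMM, filterByExpr, quasi-likelihood test, no replicate term, Benjamini-Hochberg over 12821 genes). SEs are the log2 fold change over the square root of F, and intervals (95%) use its t distribution. DESeq2 1.42.0 and limma 3.58.1 (log2(TPM + 1)) were alternatives. The edgeR, DESeq2 and limma fits were also run on simulated counts. These held no library like DMSO replicate 3 and no GC trend, and the ratio tests and intervals were not part of this. Ratios of reads were compared by exact two-sided permutation. The study's methods name DESeq2, which is an alternative here.

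The members and the gene lists were chosen with earlier results of these data known. Named are all 10 members and, of each other microtubule list, the genes called and the 2 with the highest mean TPM, except 1 gene not reported here; of the remaining lists, the 3 highest and those called where a sentence turns on them. Genes named outside this rule (the paralogs, TUBA1B, TUBA1C, TUBB6, MAST2, HDAC6, MCM5, the other markers and the undetected genes) were chosen after their values were seen.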

Additional observations from a re-analysis of the deposited data

How the results depend on the processing

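With 3 libraries a group, DMSO replicate 3 set most of the spread within a group: the common biological coefficient of variation was 0.137 to 0.159 without any other single library and 0.0421 without it. Over 19 alternatives the 10 genes had 185 log2 fold changes, of which 134 kept their direction and side of the adjusted p threshold, 25 lost and 11 gained it, and 15 turned direction. DESeq2 and RLE factors changed no call of the 10.

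Genes called higher numbered 688 in all, 0 of the 10 and 3 of the other regulators; lower, 431, 1 and 6. Leaving out 1 library gave 172 to 1485, 0 to 3 and 0 to 10 higher, and 126 to 797, 0 to 1 and 2 to 8 lower; the highest counts came without DMSO replicate 3. Limma on TPM with a pseudocount of 1, of 0.1 and of 1 with no low-value filter gave 1098, 1207 and 1057 higher in all, 1 each of the 10, 94, 110 and 88 lower in all, 0 each of the 10, and of the others 1 higher with a pseudocount of 1, filtered or not, and 1, 3 and 1 lower; the median of all genes was then 0.18, 0.20 and 0.12. Upper-quartile factors and a minimum of 10 counts each called 1 of the 10 higher. Without a fold threshold 2 of the 10 were higher and 986 genes lower; with a threshold of 1, 324 genes were higher and 28 lower, 0 of the 10 lower, and 1 of the others higher and 0 lower. The length offset (exon length, a length chosen after seeing the data) gave 705 lower. The GC offset, added after seeing the data, gave 695 lower, and without DMSO replicate 3 it gave 829 lower in all, 2 of the 10 higher and 10 of the others lower.

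The sign of MAP1B turned in the limma fits (0.03, 0.04 and 0.03) and with the GC offset without DMSO replicate 3 (0.04), and spanned -0.38 to 0.12 over single left-out libraries. That of MAP7 turned with upper-quartile factors (0.01), in limma (0.14, 0.19 and 0.14), with the GC offset without DMSO replicate 3 (0.07), and over single left-out libraries, which spanned -0.18 to 0.20. That of STMN1 turned in limma (0.13 in each). The cause was not tested.

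Deviations from the group means in same-numbered libraries correlated at 0.00138, 0.0253 and -0.0329. DMSO replicate 3 shifts the DMSO mean these deviations use, so they cannot decide whether same-numbered samples were handled together. With the replicate block 384 genes were higher and 281 lower, and 0 of the other regulators higher, also 0 with the length offset and block. STMN3 was at -0.68 (adjusted p = 0.0311) in the block fit, MAPRE1 at 0.27 (0.11) and KATNA1 at 0.49 (0.0719).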
